A study of Mus musculus with 12 samples.

Results

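Smooth muscle and peritubular contractile genes were followed in E14.5 mouse testes, with and without *Nr2f2*, the gene of the orphan nuclear receptor COUP-TFII. The 33 genes were chosen by symbol as those of the contractile apparatus, its actin regulators and its cytoskeletal anchors. They are 33 of the 24470 genes in the count table, and all 33 were among the 15572 genes that passed the filter on low counts. Control embryos were *Nr2f2 f/f*, and cKO embryos carried *Wt1 CreER* together with *Nr2f2 f/f*. Pregnant females received tamoxifen on E11.5 and E12.5, so embryos of both genotypes were exposed to it. The *Wt1* driver deletes *Nr2f2* only where *Wt1* is active when tamoxifen is given. The floxed allele also carries a LacZ reporter that is expressed after deletion. Each genotype had 6 libraries, and each library came from 1 pool of 3 testes. Whether the pools of a genotype came from separate litters is not given in the sources used here, so p-values measure the spread between these pools.

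Smooth muscle cells shorten when a calcium-activated kinase phosphorylates the myosin light chain and myosin pulls on actin filaments anchored at dense bodies. Their contractile genes are driven largely by serum response factor (SRF), which binds the CArG box, and by its muscle cofactor myocardin. In the fetal testis the same proteins mark the tunica albuginea, the capsule under the testicular epithelium, and the peritubular myoid cells that wrap the cords and later move sperm and fluid along them. Vessel walls also contain such cells.

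Total counts were between 7044531 and 39965574 in control libraries and between 7322959 and 59404778 in cKO libraries, and the biological coefficient of variation between pools was 0.170. *Nr2f2* was 163, 176 and 186 CPM (lowest, median and highest pool) in control testes and 50.2, 77.1 and 119 CPM in cKO testes, so that the genotypes did not overlap in this gene. CPM are counts scaled to the size of the library. *Xist*, the RNA of the inactive X chromosome in XX cells, exceeded 100 CPM in 4 libraries (control replicate 1 and cKO replicates 3, 5 and 6) and was at most 7.68 CPM in the 8 others. Results are therefore given with and without these 4 libraries. The defining contractile genes were present in all 12 libraries, with *Acta2* at 122 CPM or more in each.

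In cKO testes 16 of the 33 contractile genes fell and none rose (edgeR's quasi-likelihood test, p-values adjusted by Benjamini-Hochberg over all genes tested, threshold 0.05). Of all genes tested, 4.85% fell and 3.28% rose, whereas 48.5% of the contractile genes fell. The median log2 fold change of the 33 genes was -0.55, against 0.003 for all genes tested, and 28 of the 33 values were negative. At an unadjusted p under 0.05 in edgeR, 19 contractile genes were lower and 2 (*Des* and *Synpo2*) were higher, against 13.2% and 12.1% of all genes tested. Neither DESeq2 nor limma-voom called any gene of the group higher after adjustment, against 4.9% and 3.42% of all genes that each tool tested. DESeq2 and limma-voom each called 17 lower, all 16 genes of edgeR among them, against 5.81% and 4.59% of all genes. In 11 genes the highest cKO pool was under the lowest control pool, against 3.13% of all genes tested, and in 0 genes the reverse held, against 2.39%. In whole testes, fewer contractile cells and less RNA per contractile cell cannot be told apart.

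The genes that fell were counted by role. Among the thin filament genes 8 of 11 fell, and among the genes of the thick filament, its kinase and its phosphatase 4 of 6 fell. Among the intermediate filament, dense body and adhesion plaque genes 3 of 12 fell. Of the transcription regulators 1 of 2 fell, and neither the channel subunit nor the surface enzyme passed the test. The medians of the log2 fold changes were -0.79, -0.49 and -0.13 in the first 3 of these groups. Whether these groups differed from each other was not tested.

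**Figure D1:**
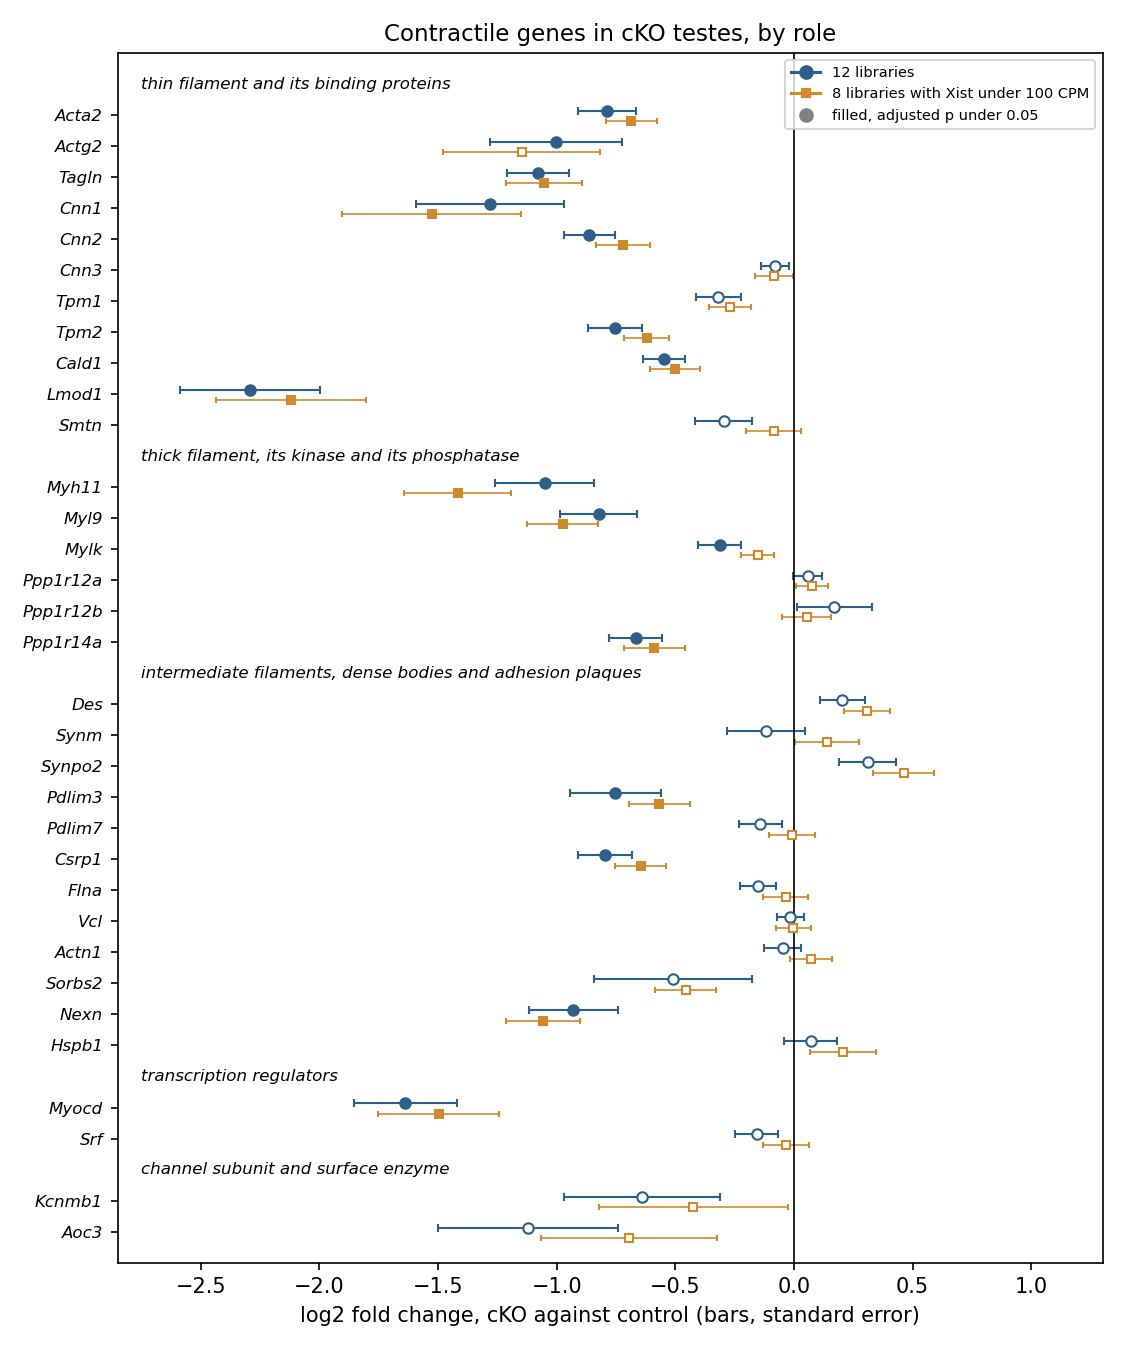
Log2 fold change of each contractile gene in cKO against control testes, grouped by role, with standard errors, with circles for all 12 libraries and squares for the 8 with little Xist (at most 7.68 CPM). Filled symbols passed the test at an adjusted p under 0.05; Lmod1 lies farthest left at -2.29, and Synpo2 farthest right at 0.31 in 12 libraries.

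Of the 33 genes, 17 belong to the marker list of contractile cells (cluster c1, read as tunica and peritubular myoid cells) that was made from single nuclei of other E14.5 testes. Of these 17, 12 fell, and their median was -0.79 on the log2 scale. Of the 16 other genes 4 fell (*Actg2*, *Cnn1*, *Tpm2* and *Ppp1r14a*), with a median of -0.15. The summed level of the 17 marker genes was between 3603 and 3830 CPM in control pools and between 2518 and 3269 CPM in cKO pools, and the groups did not overlap.

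Of the regulators, *Myocd* fell and *Srf* did not pass the test. *Myocd* encodes myocardin (chr11:65176561-65269989, mm10). It was 13.8, 17.1 and 20.6 CPM in control pools and 3.80, 4.52 and 10.7 CPM in cKO pools. The groups did not overlap, and the highest cKO pool, replicate 2, was also the cKO pool with most *Nr2f2*. The change was -1.64 on the log2 scale (standard error 0.22, adjusted p = 0.000478). Only *Lmod1* fell further among the 33 genes. *Srf*, the gene of the DNA-binding partner, was 52.0, 62.9 and 68.3 CPM in control pools and 44.8, 56.6 and 61.5 CPM in cKO pools, which overlapped (log2 fold change -0.16, standard error 0.09, adjusted p = 0.284). In the 8 libraries with little *Xist* the log2 fold changes were -1.498 for *Myocd* (adjusted p = 0.0064) and -0.03 for *Srf* (adjusted p = 0.841).

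Promoter sequences were read from RefSeq (GRCm38.p6, 250 bases before to 50 bases after the start) for 27 of the 33 genes, and *Actg2*, *Nexn*, *Myh11*, *Tagln*, *Aoc3* and *Myocd* were not matched. The CArG box was searched on both strands in its exact form, CC and GG around a run of only A and T. Boxes with a mismatch were not counted, so a gene without a match here may still hold one. The exact form was found in 4 of the 27 genes, against 1.81% of the 27025 gene symbols in the RefSeq promoter set. *Cnn2* and *Myl9* fell in cKO testes, whereas *Srf* and *Vcl* did not pass the test. Their upstream stretches are shown because they hold the letters that SRF is known to bind, in capitals. They lie at chr10:79988514-79988583 on the plus strand for *Cnn2*, with the box 56 bases before the start, and at chr2:156775273-156775342 on the plus strand for *Myl9*, with the box 161 bases before it. The stretch of *Srf* is chr17:46556185-46556274 on the minus strand, with boxes 82 and 62 bases before the start, and that of *Vcl* is chr14:20929148-20929210 on the plus strand, with the box 227 bases before it. Each is written 5′ to 3′ on the strand of its gene.
Cnn2: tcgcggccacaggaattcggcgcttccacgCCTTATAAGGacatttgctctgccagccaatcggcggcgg
Myl9: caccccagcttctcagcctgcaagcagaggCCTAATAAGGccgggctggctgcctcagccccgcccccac
Srf: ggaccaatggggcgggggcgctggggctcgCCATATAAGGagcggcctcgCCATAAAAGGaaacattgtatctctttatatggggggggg
Vcl: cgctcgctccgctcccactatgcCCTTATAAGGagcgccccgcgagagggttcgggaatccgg

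GGAATG, the letters bound by TEAD factors (CATTCC on the other strand), stood in 11 of the 27 promoters, against 16.6% of that promoter set. Of these 11 genes *Acta2*, *Cald1*, *Lmod1*, *Mylk* and *Pdlim3* fell, and *Tpm1*, *Smtn*, *Ppp1r12b*, *Flna*, *Vcl* and *Hspb1* did not pass the test. *Vcl* holds both motifs, which do not overlap. AGGTCA, the core letters bound by many nuclear receptors (TGACCT on the other strand), stood in 0 of the 27, against 18.1% of that promoter set. This says only that these letters are not in this window. The stretches of 3 genes that fell are shown with the TEAD letters in capitals, at chr19:34255484-34255549 (minus strand) for *Acta2*, chr1:135324653-135324718 (plus strand) for *Lmod1* and chr16:34784762-34784827 (plus strand) for *Mylk*. A match is a run of letters and not a measured binding site.
Acta2: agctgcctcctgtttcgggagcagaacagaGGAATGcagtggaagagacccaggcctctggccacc
Lmod1: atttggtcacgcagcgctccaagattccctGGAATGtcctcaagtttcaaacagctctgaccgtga
Mylk: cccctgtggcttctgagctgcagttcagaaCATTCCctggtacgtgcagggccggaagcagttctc

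Among the thin filament genes, the smooth muscle actin *Acta2* (chr19:34240336-34255373) was 205, 279 and 313 CPM in control pools and 122, 155 and 206 CPM in cKO pools. In 5 of 6 cKO pools it was under every control pool, and cKO replicate 2 at 206 CPM overlapped control replicate 1 at 205 CPM. On the log2 scale the change was -0.79 (standard error 0.12, adjusted p = 0.00143). *Actg2*, the enteric smooth muscle actin, was 2.49, 3.67 and 4.05 CPM in control pools and 0.814, 1.498 and 3.31 CPM in cKO pools. Its change was -1.004 on the log2 scale (adjusted p = 0.0399) and lost its call when any 1 of 10 of the 12 libraries was left out, as well as in the 8 libraries (adjusted p = 0.0604). These actins are closely related, and whether reads of 1 gene were counted or lost for the other was not tested.

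*Lmod1*, a leiomodin that starts actin filaments in smooth muscle, showed the largest fall of the 33 genes (chr1:135324813-135368065). It was 2.98, 3.19 and 3.80 CPM in control pools and 0.136, 0.615 and 1.45 CPM in cKO pools, which did not overlap, and its lowest library held 1 read pair. Its change on the log2 scale was -2.29 (standard error 0.30, adjusted p = 0.000383), and it kept its call without each library in turn. *Tagln*, the actin-bundling transgelin of smooth muscle, was 37.6, 43.3 and 49.8 CPM in control pools and 15.7, 19.5 and 29.6 CPM in cKO pools. Its groups did not overlap either (log2 fold change -1.08, standard error 0.13, adjusted p = 0.000284). *Cald1*, the gene of caldesmon, which holds myosin off actin, was 496, 547 and 690.4 CPM in control pools and 337, 391 and 446 CPM in cKO pools (log2 fold change -0.55, standard error 0.09, adjusted p = 0.0017). *Smtn*, the gene of the actin-binding smoothelin, had overlapping pools of 56.7 to 85.3 CPM in control and 47.4 to 72.7 CPM in cKO testes (log2 fold change -0.30, adjusted p = 0.137).

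**Figure D2:**
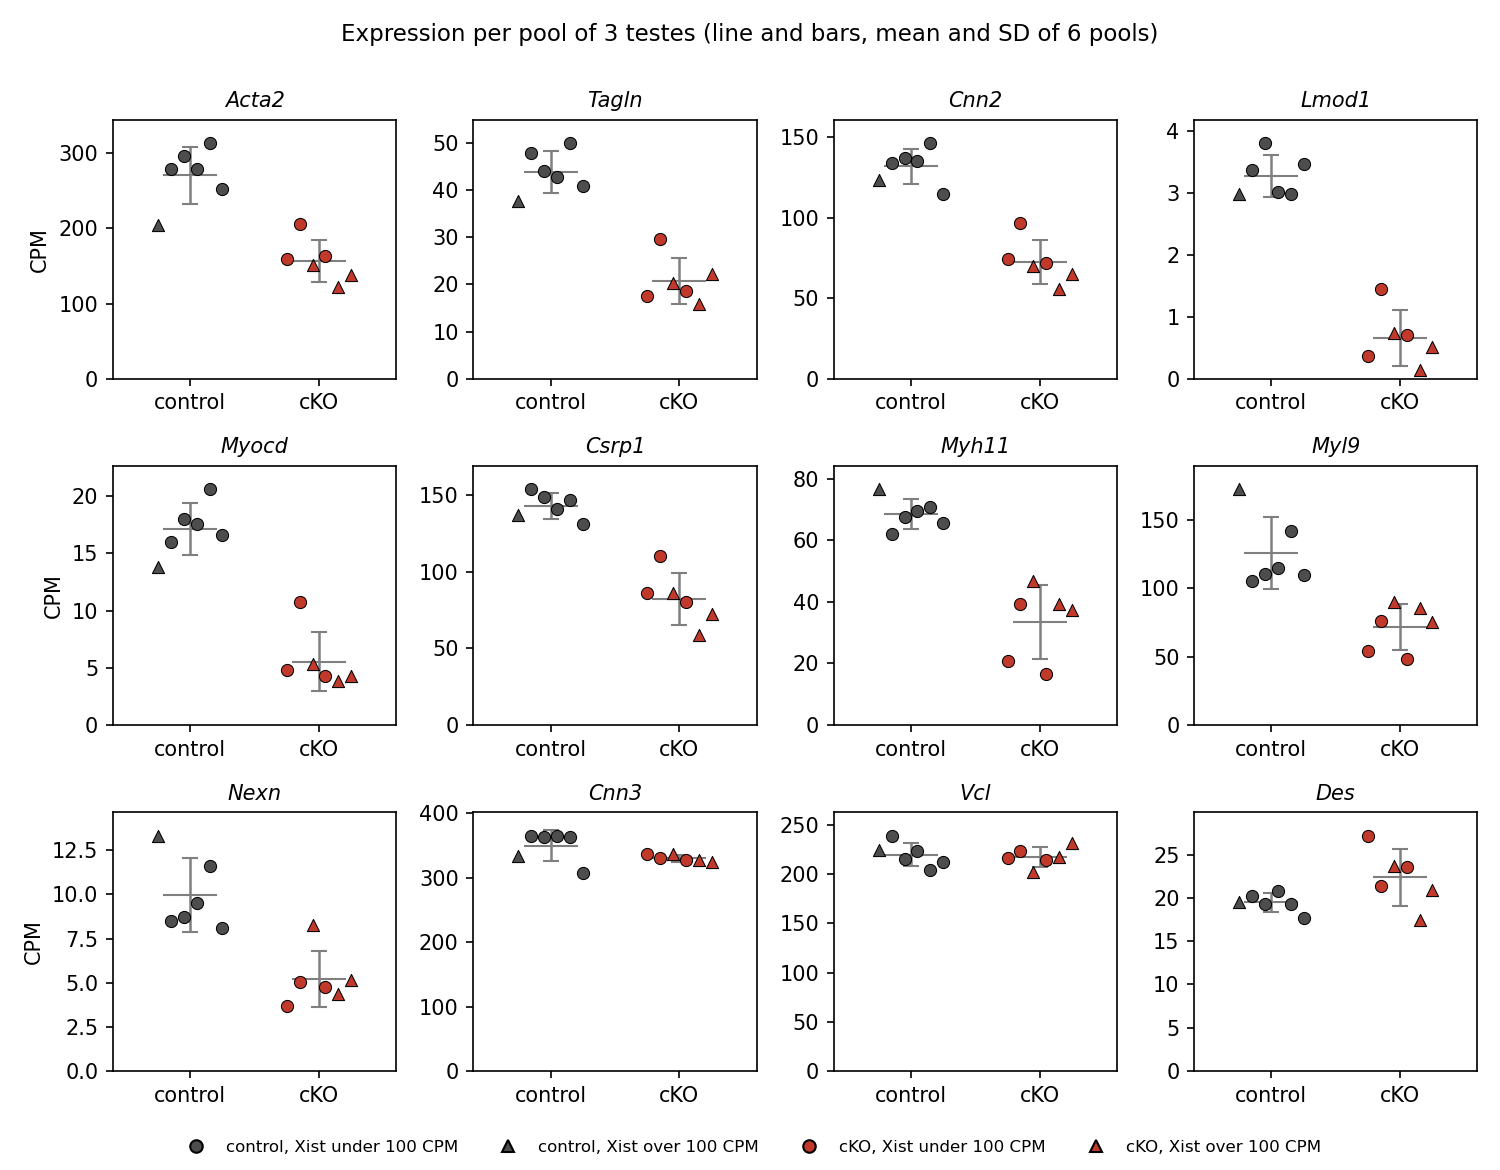
CPM of 12 contractile genes in each pool of 3 testes, control pools in grey and cKO pools in red, with triangles for the libraries with Xist over 100 CPM and lines and bars for the mean and SD of 6 pools. Lmod1 and Myocd show a wide gap between genotypes, Myh11 and Myl9 are higher in most cKO triangles than in the cKO circles, and Cnn3, Vcl and Des overlap between genotypes.

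The 3 calponins bind actin and slow myosin. *Cnn2*, the calponin also found in many non-muscle cells, was 115, 135 and 146 CPM in control pools and 55.9, 70.9 and 96.7 CPM in cKO pools, which did not overlap (log2 fold change -0.86, standard error 0.11, adjusted p = 0.000322). *Cnn1*, the calponin of mature smooth muscle, was 1.08, 2.03 and 2.36 CPM in control pools and 0.253, 0.685 and 1.45 CPM in cKO pools. The change of -1.28 on the log2 scale (standard error 0.31, adjusted p = 0.0218) lost its call without control replicate 3, cKO replicate 3 or cKO replicate 4. *Cnn3*, the calponin of non-muscle cells, was 307, 363 and 365 CPM in control pools and 324, 329 and 337 CPM in cKO pools, and the cKO pools lay within the control range (log2 fold change -0.08, adjusted p = 0.395). Apart from the prior count of 2 added to each gene, the ratio between 2 genes of a library does not depend on its scaling. Ratios were therefore compared for all 7 pairs of contractile genes that share a name stem (two-sided exact permutation test over 924 splits, smallest possible p 0.00216, adjusted over 7 pairs). The prior count shrinks ratios that involve genes with few reads, such as *Cnn1* and *Actg2*. The log2 ratio of *Cnn2* to *Cnn3* was -1.41 ± 0.05 in control and -2.21 ± 0.25 in cKO pools (SD, n = 6), lower in 6 of 6 cKO pools than in any control (exact p = 0.00216, adjusted p = 0.0101). The ratio of *Cnn1* to *Cnn3* fell by 1.23 (exact p = 0.00433, adjusted p = 0.0101), and 5 of 6 cKO pools were under every control pool. For *Cnn1* to *Cnn2* the difference was -0.43, with overlapping pools (exact p = 0.216, adjusted p = 0.253).

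The tropomyosins run along the actin filament. *Tpm2* was 39.7, 47.2 and 49.3 CPM in control pools and 20.1, 27.8 and 36.3 CPM in cKO pools, without overlap (log2 fold change -0.75, standard error 0.11, adjusted p = 0.00119). *Tpm1*, at 87.5 CPM per kb of exon in control testes against 15.9 CPM per kb for *Tpm2*, was 443, 568 and 686 CPM in control pools and 379, 459 and 501 CPM in cKO pools (log2 fold change -0.32, standard error 0.10, adjusted p = 0.056). DESeq2 called *Tpm1* lower (adjusted p = 0.027), as did edgeR without control replicate 1 (adjusted p = 0.00736). The log2 ratio of *Tpm1* to *Tpm2* was higher by 0.46 in cKO pools (exact permutation p = 0.00433, adjusted p = 0.0101), and 5 of 6 lay above every control pool. In the 8 libraries that ratio was higher by 0.36 (exact permutation p = 0.0536, adjusted p = 0.0937). *Acta2* to *Actg2* did not pass (difference 0.32, exact permutation p = 0.184, adjusted p = 0.253), with cKO pools from 5.93 to 7.23 around control pools of 6.08 to 6.41.

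**Figure D3:**
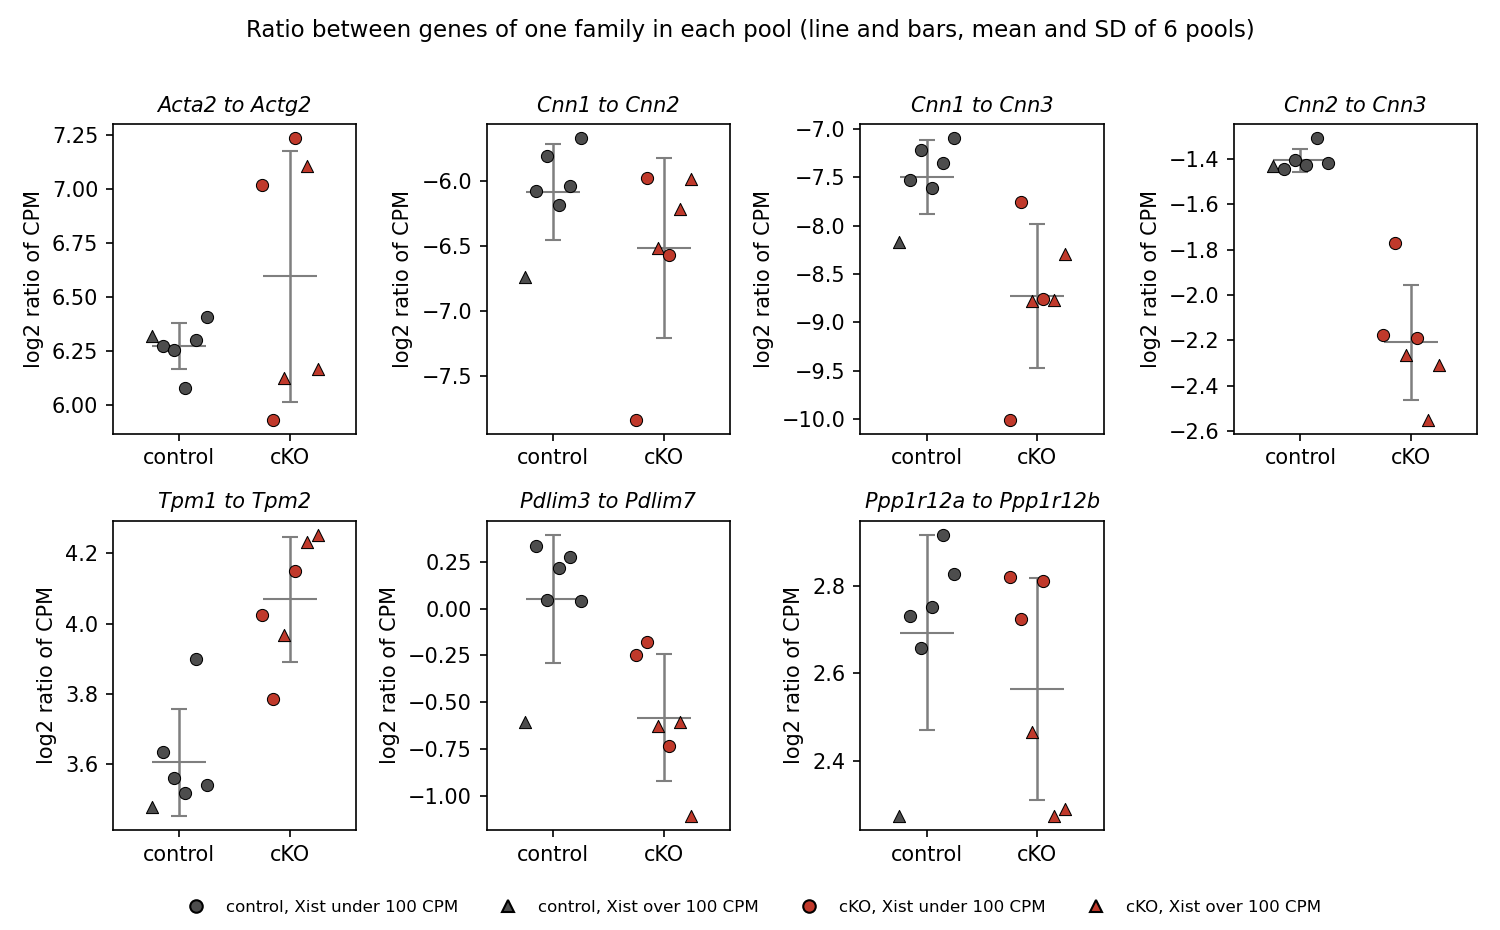
Log2 ratio of CPM, with a prior count of 2, between genes of 1 family in each pool, for all 7 pairs, control pools in grey and cKO pools in red, with the mean and SD of 6 pools and triangles for libraries with Xist over 100 CPM. The ratio of Cnn2 to Cnn3 separates the genotypes fully, whereas Ppp1r12a to Ppp1r12b is lowest in 1 control and 2 cKO triangles.

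The myosin genes fell, and the targeting subunits of the myosin phosphatase did not pass the test. *Myh11*, the smooth muscle myosin heavy chain (chr16:14194527-14291408), was 62.0, 68.4 and 76.4 CPM in control pools and 16.4, 38.3 and 46.8 CPM in cKO pools, and the groups did not overlap (log2 fold change -1.05, standard error 0.21, adjusted p = 0.00643). *Myl9*, its regulatory light chain, was 105, 113 and 172 CPM in control pools and 48.3, 75.5 and 90.0 CPM in cKO pools, again without overlap (log2 fold change -0.82, standard error 0.16, adjusted p = 0.00643). *Mylk*, the light chain kinase that starts contraction, was 243, 255 and 262 CPM in control pools and 156, 212 and 237 CPM in cKO pools. Its groups did not overlap (log2 fold change -0.31, standard error 0.09, adjusted p = 0.0469). The call was lost in 10 of 12 leave-one-out fits, as in the 8 libraries (log2 fold change -0.15, adjusted p = 0.165).

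*Ppp1r14a*, the gene of the phosphatase inhibitor CPI-17, was 11.6, 13.0 and 16.1 CPM in control pools and 6.78, 8.22 and 10.03 CPM in cKO pools, without overlap (log2 fold change -0.67, standard error 0.11, adjusted p = 0.00207). The genes of the targeting subunits of the phosphatase overlapped between genotypes. *Ppp1r12a* was 82.0 to 93.0 CPM in control and 81.9 to 98.7 CPM in cKO pools (log2 fold change 0.06, adjusted p = 0.565), and *Ppp1r12b* was 10.8 to 19.2 CPM and 12.3 to 20.4 CPM (log2 fold change 0.17, adjusted p = 0.511). The log2 ratio of these subunits differed by -0.13 between genotypes (exact permutation p = 0.372, adjusted p = 0.372).

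Most genes that anchor the filaments kept overlapping pools. *Csrp1*, a LIM protein of smooth muscle that binds SRF complexes, fell from 131, 144 and 153 CPM in control pools to 58.9, 82.9 and 110.2 CPM in cKO pools without overlap (log2 fold change -0.80, standard error 0.11, adjusted p = 0.000836). *Nexn*, the gene of the filament-binding nexilin, was 8.10, 9.11 and 13.3 CPM in control pools and 3.68, 4.88 and 8.27 CPM in cKO pools (log2 fold change -0.93, standard error 0.19, adjusted p = 0.0075). Its single overlapping pool was cKO replicate 3. *Pdlim3*, whose PDZ and LIM protein binds alpha-actinin, was 38.5, 60.9 and 72.3 CPM in control pools and 21.7, 34.1 and 52.2 CPM in cKO pools (log2 fold change -0.75, standard error 0.19, adjusted p = 0.028). Its call was lost without control replicate 2, 3, 4 or 6 or cKO replicate 3, 4 or 5. The log2 ratio of *Pdlim3* to its relative *Pdlim7* was 0.05 ± 0.34 in control and -0.58 ± 0.34 in cKO pools (SD, n = 6, exact permutation p = 0.013, adjusted p = 0.0227). Without control replicate 2, 4 or 5 the adjusted p of that exact test was 0.053.

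None of the large linkers between filaments and membrane passed the test. *Flna*, the actin cross-linker filamin A and the most abundant of the 33 genes, was 1062, 1274 and 1399 CPM in control pools and 1040, 1122 and 1260 CPM in cKO pools (log2 fold change -0.15, adjusted p = 0.229). *Vcl*, the gene of vinculin, was 204 to 239 CPM in control and 202 to 232 CPM in cKO pools (log2 fold change -0.015, standard error 0.06). *Actn1*, an alpha-actinin, was 126 to 161 CPM and 130.3 to 162 CPM (log2 fold change -0.05, standard error 0.08). The change of *Pdlim7* was -0.14 (standard error 0.09, adjusted p = 0.335) and that of *Hspb1*, a small heat shock protein that binds actin, was 0.07 (standard error 0.11, adjusted p = 0.728), both on the log2 scale. *Sorbs2*, a vinculin-binding adaptor, was 24.2 to 34.8 CPM in 5 control pools and 90.9 CPM in control replicate 1, against 17.9 to 43.6 CPM in cKO pools. Its log2 fold change of -0.51 (adjusted p = 0.351) was -0.024 without control replicate 1 and -0.46 in the 8 libraries (adjusted p = 0.0558).

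Higher values in cKO testes were seen for *Des* and *Synpo2*, without a call. *Des*, the gene of the muscle intermediate filament desmin, was 17.6, 19.5 and 20.8 CPM in control pools and 17.5, 22.5 and 27.2 CPM in cKO pools, with 5 of 6 cKO pools above every control pool (log2 fold change 0.20, standard error 0.09, adjusted p = 0.189). *Synpo2*, the actin-bundling synaptopodin 2, was 4.05, 4.94 and 6.01 CPM in control pools and 5.56, 6.204 and 7.54 CPM in cKO pools, with 4 of 6 above every control pool (log2 fold change 0.31, standard error 0.12, adjusted p = 0.124). Neither passed the test in 12 libraries. In the 8 libraries both were without overlap, but at 0.31 and 0.46 on the log2 scale they did not pass either (adjusted p = 0.0808 and 0.0542). Without control replicate 1 *Synpo2* was called higher (adjusted p = 0.0404), in a fit that called 3106 genes. *Synm*, the gene of synemin, which links desmin to the membrane, was 36.6 to 58.4 CPM in control and 30.7 to 57.8 CPM in cKO pools (log2 fold change -0.12, adjusted p = 0.682).

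The 2 remaining genes were variable. *Kcnmb1*, the smooth muscle subunit of the calcium-activated potassium channel, was 0.145 to 1.13 CPM in control and 0.271 to 0.992 CPM in cKO pools, with 1 read pair in its lowest library, and no difference was detectable at this depth (log2 fold change -0.64, standard error 0.33, adjusted p = 0.236). *Aoc3*, a surface amine oxidase of smooth muscle and fat, was 9.33, 22.6 and 39.7 CPM in control pools and 4.21, 8.99 and 20.6 CPM in cKO pools, which overlapped (log2 fold change -1.12, standard error 0.38, adjusted p = 0.085). Limma-voom called it lower (adjusted p = 0.0439), as did edgeR without control replicate 5 (adjusted p = 0.0457) or without cKO replicate 2 (adjusted p = 0.0364).

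**Figure D4:**
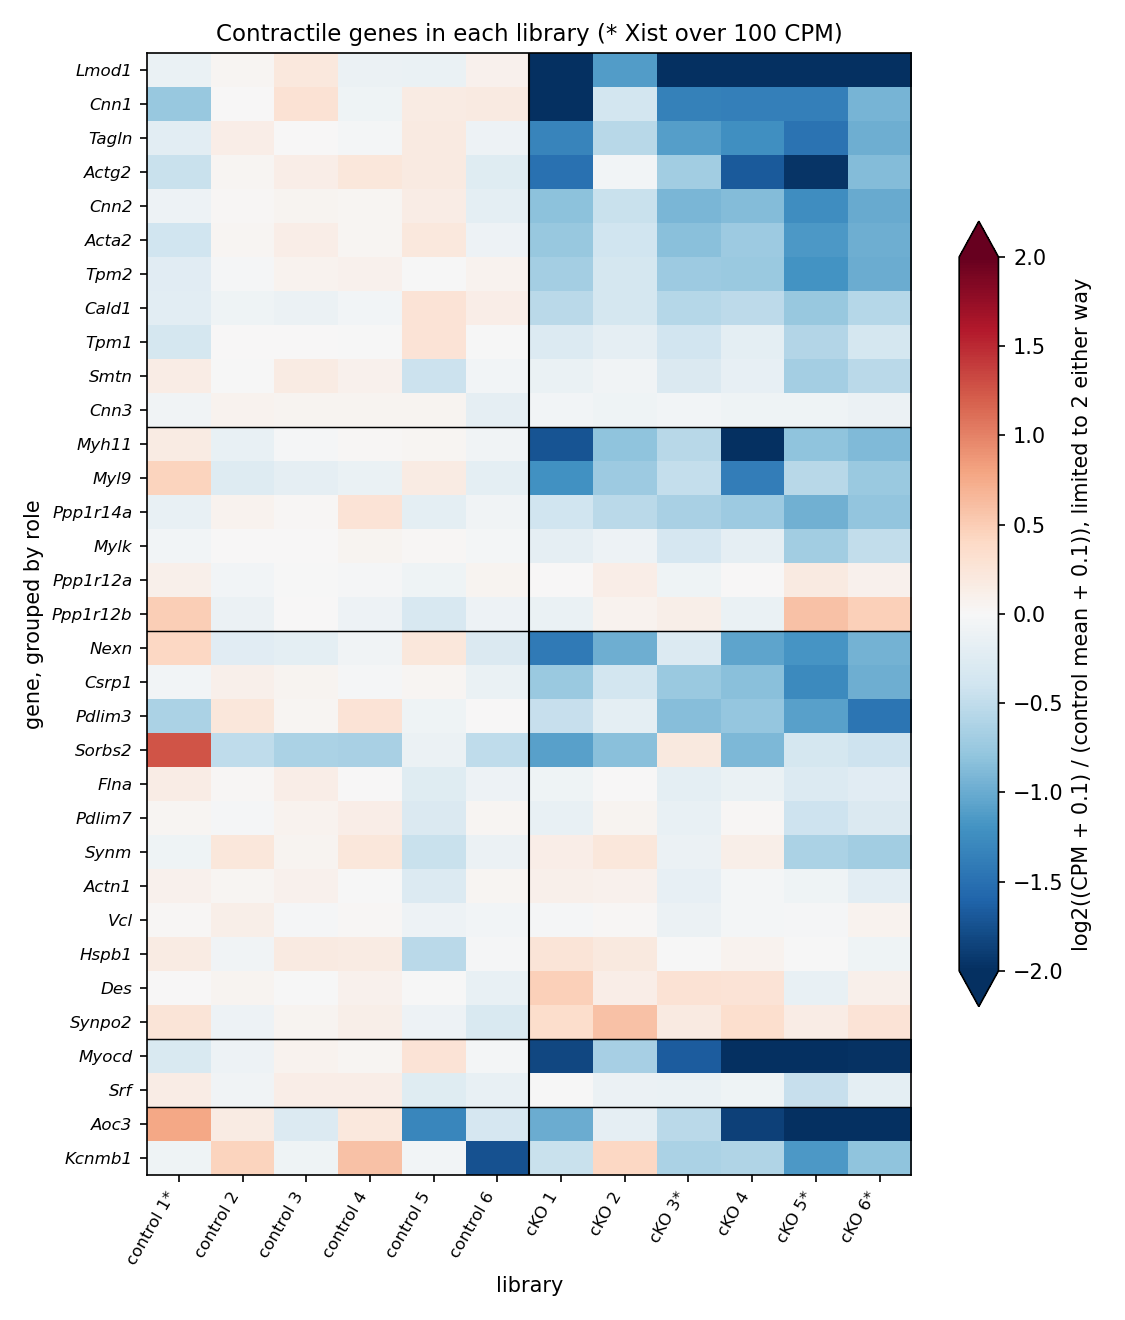
Log2 of CPM over the control mean (0.1 CPM added to both) for the 33 genes in each library, grouped by role, with asterisks for libraries with Xist over 100 CPM. Rows such as Lmod1, Tagln and Myocd are blue across the cKO libraries and palest in cKO replicate 2, while control replicate 1 stands out in Sorbs2.

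Levels between genes were compared per kilobase of exon. In control testes the most abundant were *Flna* at 134 CPM per kb, *Acta2* at 123, *Cnn3* at 115 and *Myl9* at 108 CPM per kb, with SDs of 13.7, 17.3, 7.95 and 22.5 CPM per kb, so neighbours in this order did not differ beyond their spread. *Mylk* (22.4 CPM per kb) and *Tagln* (22.0 CPM per kb) were intermediate, and *Myh11* (9.02 CPM per kb), *Actg2* (2.21), *Lmod1* (0.828) and *Cnn1* (0.698 CPM per kb) were lower. The genes that fell were therefore found at both ends of the range of levels, with *Acta2* at rank 2 and *Cnn1* at rank 31 of 33.

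Without the 4 libraries with *Xist* over 100 CPM, 5 control and 3 cKO libraries remained, and 14 of the 33 genes fell and none rose. All 14 were among the 16 of the full comparison, and *Actg2* and *Mylk* were lost. Of all 15586 genes tested there, 3.39% fell and 3.68% rose. The median log2 fold change of the contractile genes was -0.46. In 17 genes the highest cKO pool was under the lowest control pool, against 14.6% of all genes tested, and in 2 genes (*Des* and *Synpo2*) the reverse held, against 13.6%.

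Values also varied with *Xist* within a genotype. *Myl9* was 90.0, 85.2 and 75.1 CPM in the 3 cKO pools with much *Xist* and 54.1, 75.8 and 48.3 CPM in the 3 others, and 172 CPM in control replicate 1 against at most 142 CPM in the other controls. *Myh11* was 46.8, 39.4 and 37.2 CPM in the former cKO pools and 20.6, 39.3 and 16.4 CPM in the latter. Both overlapped only through cKO replicate 2. The fall of *Myh11* was steeper in the 8 libraries (log2 fold change -1.42, adjusted p = 0.00456), as was that of *Myl9* (-0.97, adjusted p = 0.00392). *Ppp1r12b* (14.8, 20.4 and 18.8 CPM against 12.3, 14.3 and 12.4 CPM) and *Sorbs2* (43.6, 29.7 and 28.3 CPM against 17.9, 21.2 and 20.4 CPM) were also higher in cKO pools with much *Xist*, without overlap. Other genes were lower in those pools, also without overlap. *Acta2* was 151, 122 and 138 CPM against 159, 206 and 163 CPM. *Mylk* was 200, 156 and 179 CPM against 224, 237 and 224 CPM. *Cnn2*, *Cald1*, *Tpm1*, *Smtn*, *Synm*, *Flna* and *Pdlim3* were among the others lower there. Control replicate 1 was the lowest control pool for *Acta2*, *Tpm1* and *Pdlim3*. The same 4 libraries were high in markers of ovarian supporting cells. *Foxl2*, a transcription factor of these cells, was 47.2 CPM in control replicate 1 and 14.6 to 19.3 CPM in the 3 cKO pools, against at most 1.299 CPM in the 8 others. *Irx3* was 31.9 CPM and 18.5 to 30.9 CPM, against at most 1.18 CPM, and *Fst*, the gene of follistatin, was 65.7 CPM and 19.7 to 46.7 CPM, against at most 5.39 CPM. Of the 5 markers of this list, *Wnt4* was lower in cKO testes and none was higher in 12 libraries, and *Wnt4* was lower and *Foxl2*, *Fst* and *Bmp2* were higher in the 8 libraries. Over all genes tested, 4.85% were lower and 3.28% higher in 12 libraries, and 3.39% and 3.68% in the 8. These classes were set from the data, and the part of such cells in the contractile gene values was not tested.

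The cKO pools kept different amounts of *Nr2f2*, and the contractile genes were compared with it across these 6 pools, where no correlation passed after adjustment over all genes tested. The pools stood at 118.6 CPM (replicate 2), 78.9, 78.8 and 75.4 CPM (replicates 1, 4 and 3) and 53.6 and 50.2 CPM (replicates 6 and 5). The mean log2 difference of the 33 genes from the control mean was -0.21 in replicate 2 and -0.84 in replicate 5, the smallest and the largest shift among the 6 cKO pools. Within the 6 cKO pools, log2 CPM of 27 genes correlated positively and of 6 negatively with that of *Nr2f2*, with a median Pearson r of 0.81, against 0.02 for all genes tested. In 16 genes the positive correlation had p under 0.05 (two-sided exact permutation test over 720 orders, not adjusted), which is 48.5% of the contractile genes, against 14.3% of all genes tested. For negative correlations the count was 0, against 14.6%. After adjustment over all genes tested, 0 of the 33 genes passed, and the lowest adjusted p was 0.0566, in a test whose smallest possible p is 0.00139.

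*Tpm2* had the highest correlation (Pearson's r = 0.98, Spearman coefficient 0.94, exact p = 0.00278 and 0.0167), followed by *Acta2* (r = 0.98, Spearman 0.94, exact p = 0.00278 and 0.0167) and *Cnn2* (r = 0.96, Spearman 1, exact p = 0.00139 and 0.00278). The adjusted p-values of these r were 0.0643, 0.0643 and 0.0566, and those of the Spearman coefficients 0.123, 0.123 and 0.0774. Without the 2 pools farthest from the median (replicates 2 and 5), r over the 4 others was 0.99, 0.95 and 0.92. Of these 4, replicates 1, 3 and 4 lay between 75.4 and 78.9 CPM of *Nr2f2* and replicate 6 at 53.6 CPM. Such an r therefore rests largely on replicate 6 and cannot show that a correlation is free of single pools. *Mylk* (r = 0.91, Spearman 1), *Flna* (r = 0.95, Spearman 1) and *Smtn* (r = 0.92, Spearman 1) had exact p = 0.00139 for r and 0.00278 for the Spearman coefficient. *Myh11* (r = -0.15, Spearman -0.37) and *Myl9* (r = -0.25, Spearman -0.37) had negative coefficients that did not pass (exact p = 0.832 and 0.632 for r, 0.497 for both Spearman coefficients). *Lmod1* (r = 0.82, Spearman 0.60, exact p = 0.0583 and 0.242) and *Myocd* (r = 0.87, Spearman 0.71, exact p = 0.0236 and 0.136) rested partly on the extreme pools, with r of 0.10 and 0.41 without them. By the Spearman coefficient 16 genes also had an unadjusted p under 0.05, against 11.5% of all genes tested, and 14 of them were shared, with *Myocd* and *Aoc3* lost and *Ppp1r14a* and *Hspb1* gained.

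Of the 16 genes that fell, 8 had a correlation with p under 0.05 and 8 did not, and of the 17 that did not fall 8 had one. The 3 cKO pools with much *Xist* were those with least *Nr2f2* (75.4, 53.6 and 50.2 CPM, against 78.8 CPM or more in the others), so both cannot be told apart in these pools. With 3 pools in each class, no correlation was computed within a class. How much *Nr2f2* was left per cell and how many interstitial cells were left cannot be told apart here.

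**Figure D5:**
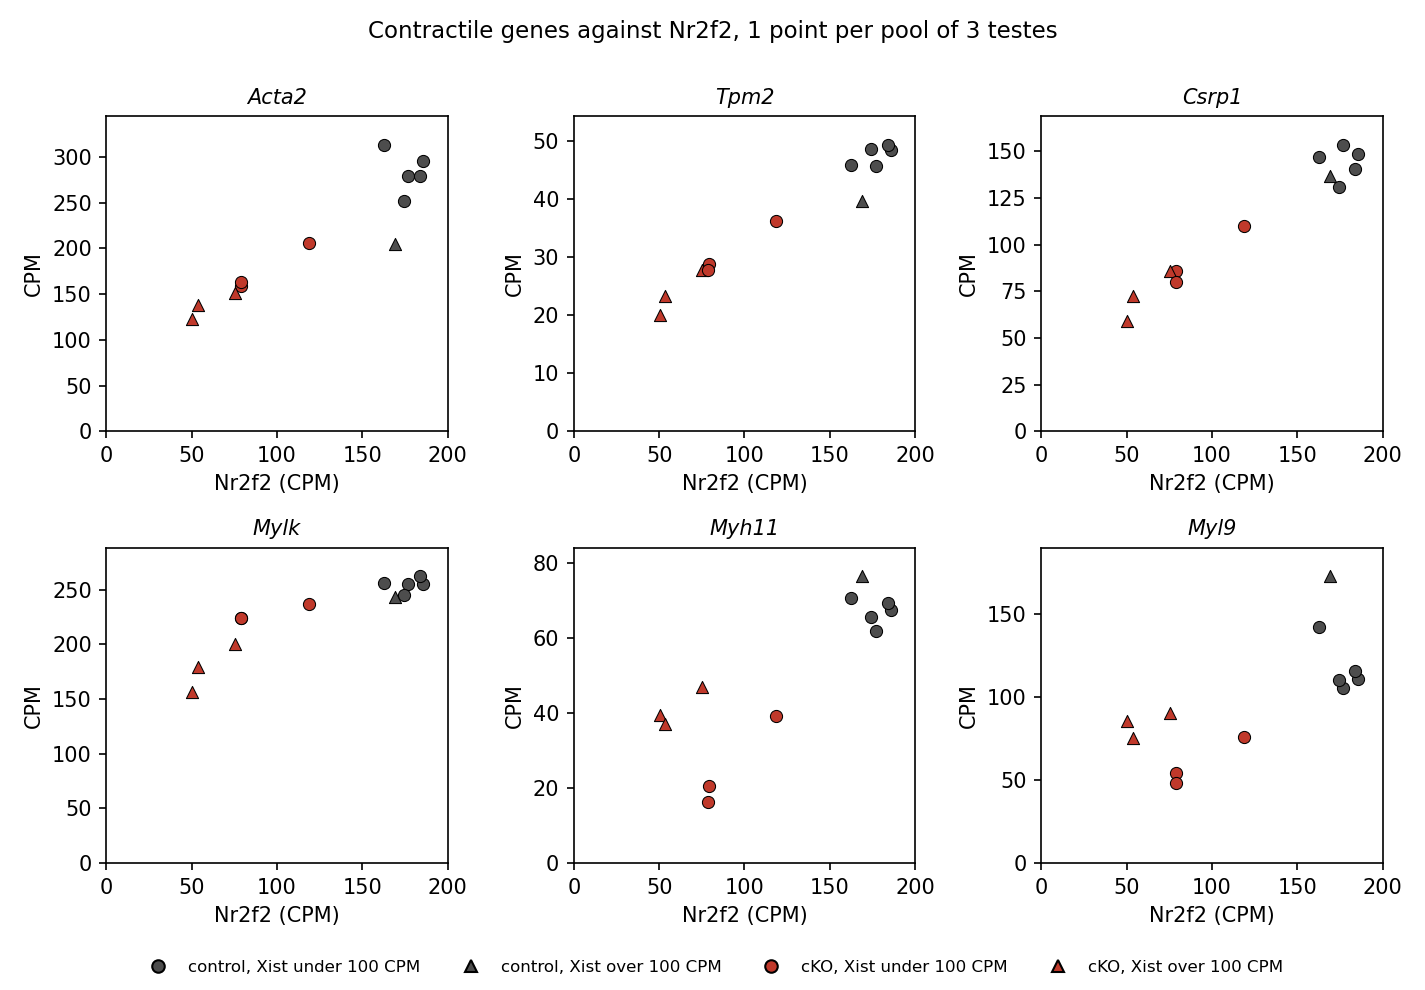
CPM of 6 contractile genes against CPM of Nr2f2, 1 point per pool of 3 testes, control pools in grey and cKO pools in red, with triangles for libraries with Xist over 100 CPM. Acta2, Tpm2, Csrp1 and Mylk rise with Nr2f2 among the 6 cKO pools, whereas Myh11 and Myl9 are lowest in 2 pools at 78.8 and 78.9 CPM of Nr2f2.

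The wider contractile pathway was listed as 94 other genes, among them SRF cofactors, other myosin and actin genes, calcium and cyclic nucleotide signalling, receptors of contractile agonists, and membrane plaques. Of the 91 that passed the filter, 20 fell and 3 rose (edgeR, adjusted p under 0.05), beside 4.85% and 3.28% of all genes tested, and the median of their log2 fold changes was -0.09. In the 8 libraries 12 of 90 fell and 3 rose, beside 3.39% and 3.68% of all genes tested, with a median of -0.11. The 5 largest falls were in *Adra1a*, an alpha-adrenergic receptor, *Fhl2*, a LIM cofactor of SRF, *Kcnj8*, a subunit of the ATP-sensitive potassium channel, *Gucy1b1*, a subunit of the nitric oxide receptor, and *Oxtr*, the oxytocin receptor. *Fhl2* was 16.0, 19.7 and 29.9 CPM in control pools and 5.16, 8.805 and 10.97 CPM in cKO pools, without overlap (log2 fold change -1.29, adjusted p = 0.000444). *Gucy1b1* was 47.3, 53.7 and 80.3 CPM in control pools and 31.5, 33.5 and 39.8 CPM in cKO pools, without overlap (log2 fold change -0.77, adjusted p = 0.0013). *Adra1a* (log2 fold change -1.62), *Kcnj8* (-0.81) and *Oxtr* (-0.77) overlapped between genotypes (adjusted p = 0.0111, 0.023 and 0.0492), and *Adra1a* and *Oxtr* did not pass in the 8 libraries (adjusted p = 0.0697 and 0.118).

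The 3 genes of the pathway that rose were *Avpr1a*, a vasopressin receptor, *Cacna1h*, a T-type calcium channel, and *Jph2*, which couples surface membrane and calcium store. *Avpr1a* was 0.918, 2.08 and 2.44 CPM in control pools and 2.95, 3.36 and 4.95 CPM in cKO pools, without overlap (log2 fold change 0.88, standard error 0.21, adjusted p = 0.0213). *Jph2* was 3.15 to 4.52 CPM and 4.69 to 5.88 CPM, also without overlap (log2 fold change 0.51, adjusted p = 0.0164). *Cacna1h* changed by 0.51 (adjusted p = 0.0409), and all 3 passed in the 8 libraries too.

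Markers of other cells that share these genes were read beside them. Over all genes tested, 4.85% fell and 3.28% rose in 12 libraries, and 3.39% fell and 3.68% rose in the 8 libraries. Of 11 pericyte and vascular mural markers tested, 2 fell (*Kcnj8* and *Lgi1*) and none rose, and the median was -0.37 on the log2 scale, and -0.07 in the 8 libraries. In 12 libraries 10 of their log2 fold changes were negative and 1 was positive. The summed level of the list was 418 to 733 CPM in control and 362 to 570.0 CPM in cKO pools, which overlapped, and *Rgs5*, a defining pericyte gene, was 14.1 to 34.8 CPM and 13.7 to 34.3 CPM. Of 8 interstitial markers 3 fell (*Nr2f2*, *Tcf21* and *Wnt5a*), and their sum was 1370.1 to 1722 CPM in control and 817 to 1475 CPM in cKO pools. Striated muscle also expresses *Des*, *Synpo2* and *Nexn*, and of 16 of its markers tested 4 rose (*Myh8*, *Tnnt2*, *Tnni1* and *Tnnc1*) and 2 fell (*Myh7* and *Tnnt1*). Their sum was 62.6 to 78.6 CPM in control and 76.5 to 105.6 CPM in cKO pools, with 5 of 6 cKO pools above every control pool. *Myh8*, a myosin heavy chain of developing striated muscle, was 3.76 to 5.88 CPM in control and 16.9 to 25.1 CPM in cKO pools, without overlap (log2 fold change 2.27, adjusted p = 4.44e-07). *Tnnt2* (log2 fold change 1.40, adjusted p = 0.00154) and *Tnnc1* (1.18, adjusted p = 0.0122) were at most 3.53 CPM in any pool. Without *Myh8* the sum over the 17 other genes had medians of 66.9 CPM in both genotypes, and 1 cKO pool lay above and 1 below every control pool (58.5 to 73.6 CPM in control and 56.6 to 80.9 CPM in cKO pools). *Myod1* was at most 0.377 CPM and *Ckm* at most 0.771 CPM. Of 5 fetal Leydig markers 4 fell, in 12 and in 8 libraries alike (median log2 fold change -0.91 and -0.72), with sums of 1561 to 2910 CPM in control and 841 to 1745 CPM in cKO pools. Of 6 Sertoli markers none passed the test (sums of 805 to 1230 CPM and 707 to 1205 CPM), and of 6 endothelial markers 1 fell (*Tek*; sums of 323 to 485 CPM and 321 to 398 CPM), which did not pass in the 8 libraries (adjusted p = 0.182). Among 6 testicular epithelium markers 1 fell (*Pdgfc*) and 1 rose (*Msln*, which did not pass in the 8 libraries, adjusted p = 0.19). None of 3 mesonephric mesenchyme markers passed the test. The part of these cell types in the contractile gene values was not tested.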

How the data were processed

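RNA-seq was measured in 12 pools of E14.5 testes, 6 control and 6 cKO. Per the labels and the study's methods, reads were trimmed with Trim Galore 0.6.7, aligned to mm10 with STAR 2.5 and counted by strand on RefSeq gene models with featureCounts of Subread 1.5.0-p1. The authors deposited these counts unfiltered and not normalized, and all 12 libraries were used. Total counts were 7044531 to 59404778, so counting error weighed more in the smaller libraries and in genes with few reads. Its size beside the spread between pools was not tested. Groups came from the genotype in the labels.

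Groups were compared with edgeR 4.0.16 (R 4.3.3), with TMM scaling, filterByExpr (minimum count 10, minimum total 15) and the quasi-likelihood test, adjusted by the Benjamini-Hochberg method over 15572 genes at a threshold of 0.05. Standard errors were the log2 fold change divided by the square root of F. CPM used TMM-scaled totals, with a prior count of 2 on the log2 scale. Levels per kilobase used merged exons of GENCODE M21, on the same build. Alternatives were DESeq2 1.42.0 (the study's tool), limma-voom (limma 3.58.1), RLE scaling, no filter, a filter of 1 CPM in 6 libraries, a replicate block, Xist as a covariate, the 8 libraries with little Xist alone, and leaving out each library. On simulated cKO against control libraries with 15572 genes and 200 changed, edgeR recovered 33 of 63 at a log2 fold change of 0.5, 53 of 66 at 1 and 64 of 71 at 1.5, with 7 false calls among 157.

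The 33 genes, the role, pathway and marker lists and the tests were chosen with earlier results of these data known. All 33 genes were named, and of the wider pathway the 5 called genes with the largest fall and up to 5 with the largest rise. The family ratios were added after the values were seen. Correlation p-values were to be adjusted over the 33 genes, and were adjusted over all genes tested instead. The marker list of cluster c1 was taken from the study by name only, without values. The counts of 1 of the pathway lists are not reported here.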

Additional observations from a re-analysis of the deposited data

Results flagged for a closer look

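Dixon's test for a pool apart from the 5 others of its genotype was applied to 84 sets of 6 values, of which chance would pick about 1 in 20, and 7 were picked. In control testes, *Ppp1r12b* was 19.2 CPM in replicate 1, against 10.8 to 13.7 CPM in the other controls. *Sorbs2* was 90.9 CPM in the same pool, against 24.2 to 34.8 CPM. Control replicate 1 is also the control library with *Xist* over 100 CPM. *Actn1* was 126 CPM in control replicate 5, against 150.4 to 161 CPM, and *Fhl2* was 29.9 CPM there, against 16.0 to 20.7 CPM. In cKO testes, *Nexn* was 8.27 CPM in replicate 3, against 3.68 to 5.14 CPM in the others. *Myocd* was 10.7 CPM in replicate 2, against 3.80 to 5.34 CPM, and *Kcnmb1* was 0.992 CPM there, against 0.271 to 0.505 CPM. Replicate 2 is the cKO pool with most *Nr2f2* (118.6 CPM). The causes were not tested.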

How the results depend on the processing

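The number of contractile genes called lower was 16 in the reported fit and between 14 and 17 under DESeq2, limma-voom, RLE scaling, no filter, the filter of 1 CPM in 6 libraries, the replicate block, *Xist* as a covariate and the 8 libraries with little *Xist*, against 3.18% to 5.81% of all genes tested, and the median log2 fold change was between -0.57 and -0.46. Leaving out each library in turn gave 12 to 17 genes lower and 0 to 1 higher (*Synpo2*, without control replicate 1), a median of -0.62 to -0.53, and 11 to 15 genes lower and 0 to 1 higher without overlap between groups (1 higher without control replicate 1 or cKO replicate 5). Of all genes tested, 3.19% to 4.81% were then lower and 2.05% to 3.33% higher, and 3.29% to 4.44% were lower and 2.58% to 3.15% higher without overlap. Without control replicate 1 these shares were 10.5%, 9.44%, 7.49% and 6.71%, beside 17, 1, 15 and 1 contractile genes. In the 8 libraries 17 genes were lower and 2 higher without overlap, where fewer samples make separation easier. Same-numbered pools did not deviate together (correlations from -0.33 to 0.24), so the numbers do not pair them; with the replicate block 17 genes were lower, 15 of them shared, with *Mylk* lost and *Smtn* and *Aoc3* gained. *Actg2* and *Mylk* lost their calls without any 1 library but control replicate 1 or cKO replicate 2. Signs turned only in genes with no call, among the 33 genes: *Synm* (0.14) and *Actn1* (0.073) in the 8 libraries, *Vcl* between -0.035 and 0.010 (positive without control replicate 2 or cKO replicate 3, at 0.0054) and *Hspb1* between -0.010 and 0.11 (negative without control replicate 5) when single libraries were left out. *Sorbs2* moved from -0.51 to -0.024 without control replicate 1 and to -0.73 with *Xist* as a covariate (adjusted p = 0.0101). The ratio of *Ppp1r12a* to *Ppp1r12b* changed by 0.0087 in the 8 libraries. These causes were not tested. For CPM without a log 16 genes had a positive correlation with *Nr2f2* at an unadjusted p under 0.05, against 12.5% of all genes tested, and 15 were shared, with *Tpm1* lost and *Lmod1* gained. Depth limits *Kcnmb1*, *Cnn1*, *Lmod1*, *Actg2* and, in the wider pathway, *Adra1a*, whose lowest libraries held 1 to 6 read pairs.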
